A study of Mus musculus with 2 samples.

Results

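The loci of 10 transcription factor genes that mark pluripotent cells, each taken with 100 kb on either side, were examined for peaks of SRCAP in mouse embryonic stem cells (mESCs). The genes were Pou5f1, Sox2, Nanog, Esrrb, Klf4, Klf5, Tfcp2l1, Prdm14, Sall4 and Zfp42, picked by name from the 21951 protein-coding genes of the GENCODE vM21 annotation of the mouse genome (GRCm38, also called mm10). A peak belonged to a locus when its midpoint lay in the promoter window (1000 bp before to 500 bp after any annotated transcription start site, TSS), elsewhere in the gene body, or in the flanks. The loci held 95 of the 28718 peaks obtained with an antibody against GFP and 70 of the 28167 peaks obtained with an antibody against SRCAP.

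Both libraries came from SYAT cells, a CGR8 mESC line in which the fluorescent protein YPet and the auxin-inducible degron AID were fused to the SRCAP protein from both of its alleles and in which the receptor OsTir1 was stably expressed. The tag is recognised by the GFP antibody and the protein by the SRCAP antibody, so both lists report on the same fusion protein. SYAT cells were kept in auxinole against basal degradation of SRCAP and were changed from a medium with 2 kinase inhibitors to serum and LIF before experiments. Which treatment each of these libraries received was not in the labels. The study presents its CUT&RUN map of the fusion protein as one of control SYAT cells, and its methods define control as auxinole. Those methods describe CUT&RUN with the SRCAP antibody only. For CUT&RUN, an assay in which a nuclease bound to an antibody releases the DNA beneath it, each library used 100000 cells, fixation for 5 min in 0.1% formaldehyde, antibody at a 50-fold dilution, selection of 250 bp inserts and 75 nt reads from both ends. There was 1 library per antibody and no control antibody was analysed, so no difference between antibodies or loci was tested, and intervals cover counting error only. The peak lists hold no read counts, and the depth of the libraries is unknown. Expression was not measured in these libraries, so the cell type could not be checked from its markers.

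SRCAP is the ATPase of a chromatin remodeller that takes H2A out of nucleosomes and puts the variant H2A.Z in its place, mostly at promoters and enhancers. Pou5f1 (which encodes OCT4), Sox2 and Nanog encode the core factors that keep mESCs undifferentiated, and the 3 proteins bind near each other's genes. Esrrb, Klf4, Klf5, Tfcp2l1 and Prdm14 encode further factors of the naive state, Sall4 encodes a zinc finger factor of the same network, and Zfp42 (REX1) is a widely used marker of undifferentiated mESCs. Several of these genes are controlled by enhancers outside the gene, among them the SRR1 and SRR2 regions that flank Sox2, a control region far downstream of Sox2, the distal enhancer upstream of Pou5f1, an enhancer upstream of Nanog and enhancers downstream of Klf4. The positions of these known elements were not in the files used here, so which peak lies in which element was not tested.

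The genomic sequence at the midpoint of 12 peaks is given here, 2 at promoters of members and 10 in the flanks. The positions and scores of these peaks are described afterwards. The first 8 follow a rule (the promoter peak or, where there was none, the peak with the highest score shared by both lists, in falling order of score and stopping at 8). The promoter peaks of Sall4, which tied with the last of these at a score of 79, and of Tfcp2l1 are therefore not printed. The last 4 were added after their values were seen. Each line names the member at whose locus the peak lies. It gives 200 bases of the plus strand of GRCm38, 5′ to 3′, in lower case. The first sequence lies in the promoter window of another gene, Gm5112, 103 kb from the nearest Nanog TSS. The second lies in that of 4732487G21Rik, at −55.2 kb from the nearest Esrrb TSS. Capitals mark matches, on either strand, to the exact consensus sequences of factors, or families of factors, that members encode: the POU octamer ATGCAAAT, SOX CATTGTT, ESRRB CAAGGTCA, KLF GGGNGTGG, PRDM14 GGTCTCTAA, the YY1/ZFP42 motif AAGATGGC and TFCP2L1 CCNGNNNNNNCCNG, with the short CTCF core CCNNNAGNNGGC searched beside them. No sequence for NANOG or SALL4 was searched.
Nanog, GFP peak, chr6:122810799-122810998: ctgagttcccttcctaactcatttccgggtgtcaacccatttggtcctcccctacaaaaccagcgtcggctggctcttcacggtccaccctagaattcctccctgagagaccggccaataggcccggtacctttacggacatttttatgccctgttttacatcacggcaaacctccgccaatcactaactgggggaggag
Esrrb, SRCAP peak, chr12:86305807-86306006: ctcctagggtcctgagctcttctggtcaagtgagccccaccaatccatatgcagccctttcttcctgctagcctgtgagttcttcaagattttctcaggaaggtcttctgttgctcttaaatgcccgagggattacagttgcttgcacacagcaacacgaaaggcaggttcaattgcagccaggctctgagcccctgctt
Pou5f1, GFP peak, chr17:35434767-35434966: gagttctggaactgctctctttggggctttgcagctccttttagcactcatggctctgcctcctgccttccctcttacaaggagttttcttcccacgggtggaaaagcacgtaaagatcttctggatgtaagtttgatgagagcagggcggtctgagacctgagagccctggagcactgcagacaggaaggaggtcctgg
Sox2, SRCAP peak, chr3:34646315-34646514: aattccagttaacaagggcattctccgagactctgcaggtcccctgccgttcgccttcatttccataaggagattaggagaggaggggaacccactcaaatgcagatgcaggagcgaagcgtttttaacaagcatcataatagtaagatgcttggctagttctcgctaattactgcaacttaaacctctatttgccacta
Klf4, SRCAP peak, chr4:55514834-55515033: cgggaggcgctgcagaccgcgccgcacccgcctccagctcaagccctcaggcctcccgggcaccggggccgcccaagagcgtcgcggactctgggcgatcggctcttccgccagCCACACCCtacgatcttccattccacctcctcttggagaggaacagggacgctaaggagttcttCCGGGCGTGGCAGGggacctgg
Zfp42, SRCAP peak, chr8:43306991-43307190: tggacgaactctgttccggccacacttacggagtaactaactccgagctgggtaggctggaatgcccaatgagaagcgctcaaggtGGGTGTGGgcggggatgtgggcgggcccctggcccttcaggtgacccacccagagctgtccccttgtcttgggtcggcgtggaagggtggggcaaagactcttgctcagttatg
Prdm14, SRCAP peak, chr1:13052176-13052375: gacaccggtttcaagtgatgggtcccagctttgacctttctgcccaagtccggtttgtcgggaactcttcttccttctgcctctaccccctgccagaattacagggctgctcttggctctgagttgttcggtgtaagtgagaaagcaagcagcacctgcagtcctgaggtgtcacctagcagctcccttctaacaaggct
Klf5, GFP peak, chr14:99298374-99298573: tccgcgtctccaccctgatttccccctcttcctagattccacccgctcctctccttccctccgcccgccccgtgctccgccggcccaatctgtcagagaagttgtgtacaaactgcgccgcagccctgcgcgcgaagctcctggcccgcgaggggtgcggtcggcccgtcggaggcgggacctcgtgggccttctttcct
Pou5f1, GFP peak, chr17:35504623-35504822: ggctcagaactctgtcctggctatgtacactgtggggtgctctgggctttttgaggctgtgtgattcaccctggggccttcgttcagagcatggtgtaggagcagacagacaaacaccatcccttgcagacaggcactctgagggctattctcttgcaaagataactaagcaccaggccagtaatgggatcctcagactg
Nanog, GFP peak, chr6:122702730-122702929: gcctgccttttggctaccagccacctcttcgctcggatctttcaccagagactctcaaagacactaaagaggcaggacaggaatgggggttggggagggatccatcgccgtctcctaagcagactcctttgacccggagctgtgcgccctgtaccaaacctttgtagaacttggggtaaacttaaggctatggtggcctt
Klf4, SRCAP peak, chr4:55519662-55519861: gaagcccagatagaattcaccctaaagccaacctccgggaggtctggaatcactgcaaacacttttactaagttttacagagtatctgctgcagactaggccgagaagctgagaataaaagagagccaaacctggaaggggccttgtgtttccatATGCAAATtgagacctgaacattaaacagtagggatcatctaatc
Zfp42, GFP peak, chr8:43320918-43321117: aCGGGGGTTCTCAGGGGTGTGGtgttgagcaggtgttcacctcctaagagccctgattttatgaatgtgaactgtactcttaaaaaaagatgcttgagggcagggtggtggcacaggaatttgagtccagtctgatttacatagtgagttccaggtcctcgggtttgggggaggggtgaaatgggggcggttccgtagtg

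In these windows, the Klf4 peak at chr4:55514834-55515033 held the KLF sequence 2 times, and 1 of these overlapped a TFCP2L1 match. The other Klf4 window held a POU octamer, the Zfp42 promoter window held 1 KLF match, and the Zfp42 window upstream of the gene held a KLF match that overlapped a TFCP2L1 match. The other 8 windows held none of the 8 sequences, which says only that these exact letters were not in the 200 bases printed. A peak wider than 200 bp reached beyond its window.

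Most peaks at the loci were in the flanks, in a share close to that of the flanks in the window length. Of the 95 GFP peaks, 3 were in a promoter window of a member, 10 in a gene body and 82 (86.3%) in a flank. Of the 70 SRCAP peaks, 4 were in a promoter window, 7 in a gene body and 59 (84.3%) in a flank. The flanks made up 86.6% of the length of the windows, and over the pooled windows of all protein-coding genes 83.8% of GFP and 83.2% of SRCAP peaks were in flanks, so the share at the members is not a result about them. Promoter windows held 3.16% of the GFP and 5.71% of the SRCAP peaks at the loci, beside 7.28% and 7.75% over all genes. Farther than 25 kb from the nearest TSS of the member were 58 GFP peaks (61.1%) and 44 SRCAP peaks (62.9%), where 71.8% of the window length lay that far. By annotation, 52 GFP peaks (54.7%; 32.7% of the whole list) and 35 SRCAP peaks (50.0%; 32.1%) were intergenic. Intronic were 25 GFP (26.3%; 32.6%) and 18 SRCAP peaks (25.7%; 32.1%). The promoter window of any gene held 13 GFP (13.7%; 30.4%) and 12 SRCAP peaks (17.1%; 31.1%). The whole lists are not limited to genes with their flanks, and this split is not given for like windows of all genes. The differences by annotation are therefore not a result about the members. Promoters of other genes held 10 of the 82 GFP flank peaks (12.2%) and 8 of the 59 SRCAP flank peaks (13.6%).

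**Figure D1:**
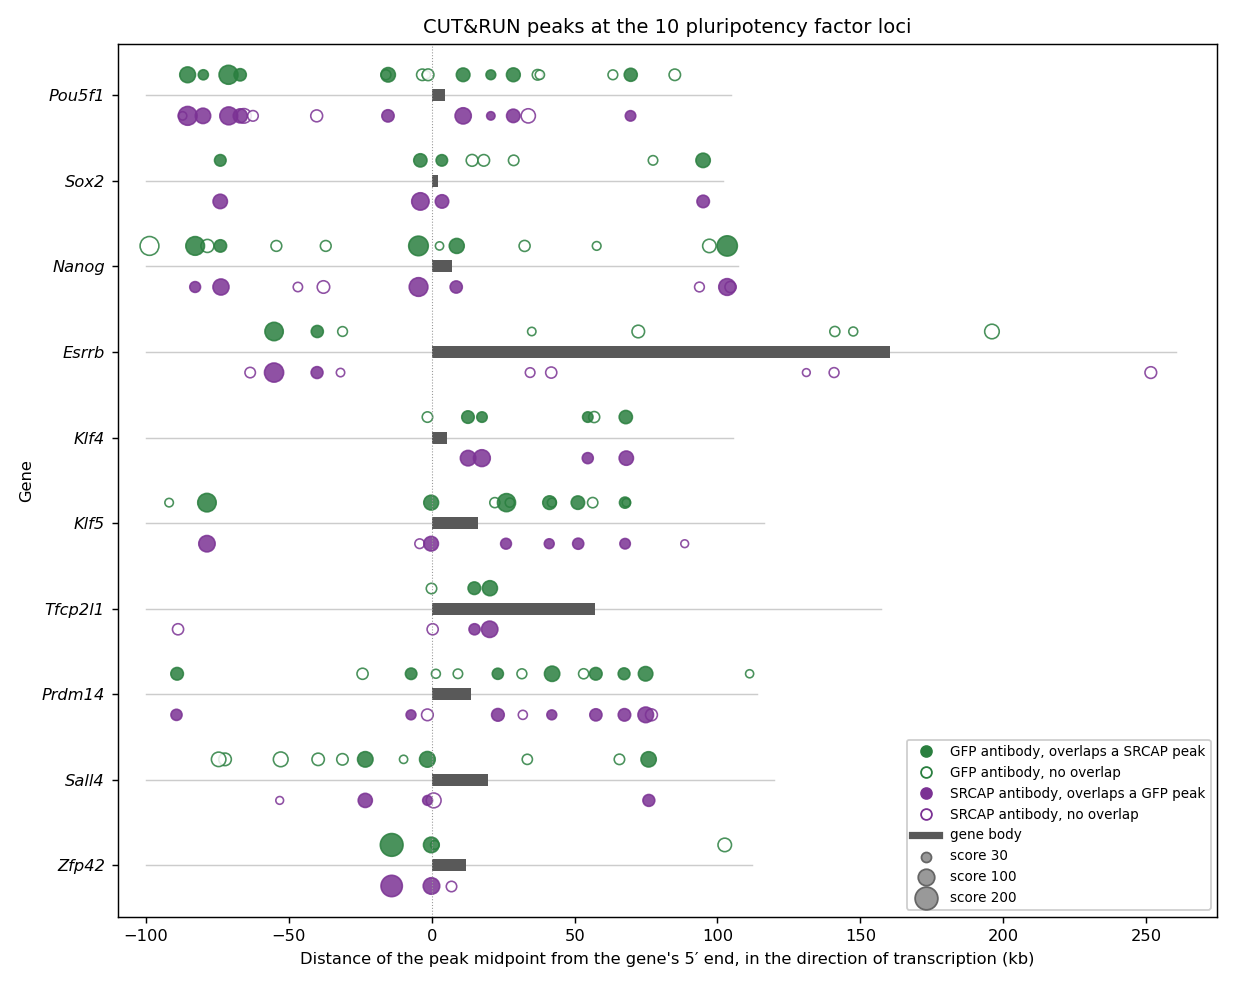
Midpoints of the peaks at the 10 loci by distance from the gene's 5′ end in the direction of transcription (kb), with GFP peaks above and SRCAP peaks below each gene; filled circles overlap a peak of the other list, and circle area grows linearly with the score. Of 95 GFP and 70 SRCAP peaks, 82 and 59 lie in the flanks, and the largest circles are at Zfp42, at −14.0 kb.

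The promoter windows of Klf5, Tfcp2l1 and Zfp42 held a GFP peak, which is 3 of 10 members where 35.0% of all protein-coding genes had one. The same 3 genes and Sall4 held a SRCAP peak, 4 of 10 members against a background of 35.6%. Peaks with both antibodies were thus present at 3 of 10 members, against 27.0% of protein-coding genes. These counts are near the background. No promoter window of Pou5f1, Sox2, Nanog, Esrrb, Klf4 or Prdm14 held a peak with either antibody.

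In gene bodies outside the promoter window, GFP peaks were present at 5 of 10 members (Nanog, Esrrb, Tfcp2l1, Prdm14 and Zfp42; 25.3% of protein-coding genes) and SRCAP peaks at 3 (Esrrb, Tfcp2l1 and Zfp42; 25.0% of genes). Flank peaks were present at 9 of 10 members with the GFP antibody (83.9% of genes) and at 10 of 10 with the SRCAP antibody (84.8% of genes). Tfcp2l1 was the member with no GFP peak in its flanks.

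With wider distances from the TSS, the count at the members was larger relative to the background. Within 2.5 kb of any TSS, 8 members had a GFP peak (all but Sox2 and Nanog; 41.6% of genes) and 6 had a SRCAP peak (Esrrb, Klf5, Tfcp2l1, Prdm14, Sall4 and Zfp42; 41.9% of genes). Within 5 kb, all 10 members had a GFP peak (47.5% of genes) and 8 had a SRCAP peak (47.4% of genes), the exceptions being Pou5f1 and Klf4. The same 8 had peaks of both lists within 5 kb, against 38.0% of genes. Within 10 kb, GFP peaks were at 10 members (55.1% of genes) and SRCAP peaks at 9 (55.2% of genes), and Klf4 had none. The distances of 5 and 10 kb were chosen after the positions were seen, so the counts are a description.

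Counted per length, the 10 windows together (2.30 Mb) held 4.13 GFP peaks per 100 kb (95% exact Poisson interval 3.34 to 5.05) and 3.05 SRCAP peaks per 100 kb (2.37 to 3.85). The median over the members was 4.48 for GFP (range 1.17 to 8.30) and 2.39 for SRCAP (range 1.42 to 6.84). Windows of all protein-coding genes had a median of 1.85 GFP peaks per 100 kb (interquartile range 0.623 to 3.42) and 1.80 SRCAP peaks per 100 kb (0.734 to 3.23), and neighbouring genes share much of their windows. For GFP, 9 members were above the median of all genes and 6 above the upper quartile, and for SRCAP the counts were 8 and 4.

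Pou5f1 had the highest density in both lists, 8.30 and 6.84 peaks per 100 kb, at percentiles 98.9 and 97.7 of all genes. Its window lies in the gene-dense major histocompatibility complex of chromosome 17, and among genes of that chromosome it was at percentiles 98.6 and 96.4. Nanog (6.28 and 4.34), Prdm14 (6.08 and 4.68) and Klf5 (5.55 and 3.70) followed in both lists, in an order that differed between them. Sall4 had 5.01 GFP peaks per 100 kb but 2.28 SRCAP peaks per 100 kb, from 11 and 5 peaks. Sox2 had 3.96 and 1.98, and Klf4 2.92 and 1.95. Esrrb, the longest gene of the set at 161 kb, had 2.22 and 2.50. Tfcp2l1 had the lowest GFP density, 1.17 (percentile 36.2), beside 1.56 for SRCAP. Zfp42 had 1.89 and 1.42, near the middle of all genes (percentiles 50.9 and 41.6) but low among the genes of chromosome 8, whose peaks were denser (percentiles 22.0 and 10.5). With 3 to 17 peaks per locus and list, the order of neighbours in this ranking rests on a few peaks.

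**Figure D2:**
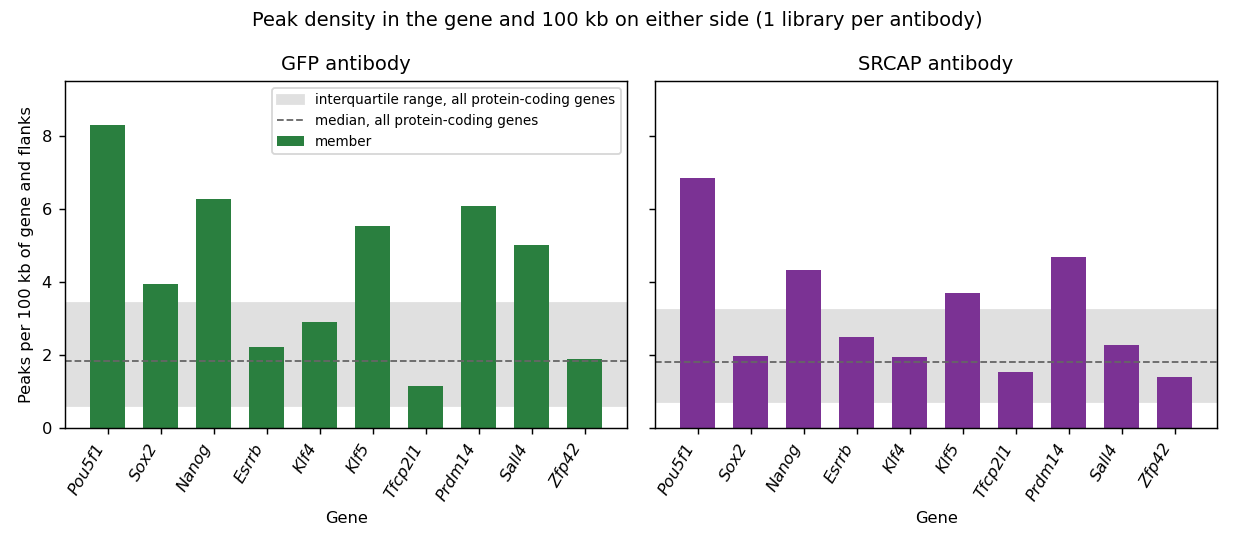
Peaks per 100 kb of window (gene and 100 kb flanks) for each member, GFP antibody left and SRCAP antibody right, with the median (dashed line) and interquartile range (grey band) of 21951 protein-coding genes and 1 library per antibody. Pou5f1 is highest in both panels, and Tfcp2l1 for GFP and Zfp42 for SRCAP are lowest.

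Peaks of both lists overlapped by at least 1 bp at 44 sites, in 1-to-1 pairs, with at least 2 pairs at each of the 10 members. The pairs made up 46.3% of the GFP peaks at the loci (95% Wilson interval 36.6 to 56.3) where 56.2% of the whole GFP list overlapped a SRCAP peak. They made up 62.9% of the SRCAP peaks at the loci (51.1 to 73.2) where 57.7% of the whole SRCAP list was shared. At the loci, overlap went with the score, a whole number deposited for each peak. Shares above and below the median score are not given for the whole lists, so whether this is particular to the loci was not tested. The median score was 47 in both lists. Of GFP peaks at the loci with a score at or above it, 34 of 44 (77.3%, 63.0 to 87.2) were shared, and of those below, 10 of 51 (19.6%, 11.0 to 32.5). For SRCAP peaks the shares were 31 of 37 (83.8%, 68.9 to 92.3) and 13 of 33 (39.4%, 24.7 to 56.3). The median score of shared peaks was 65 for GFP and 63 for SRCAP, beside 34 and 34.5 for peaks found in 1 list.

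The midpoints of paired peaks were a median of 40.75 bp apart. The GFP score was the higher one in 26 pairs and the SRCAP score in 18. Across the 44 pairs, Spearman's rho between the scores was 0.354 and Pearson's r of the log scores was 0.420, as a description over sites of the same pair of libraries. The pair with the highest scores in both lists was upstream of Zfp42 (201 and 176), and 3 further pairs scored at least 120 with both antibodies: Nanog at −4.66 kb (146 and 132), the promoter of the noncoding gene 4732487G21Rik upstream of Esrrb (127 and 139) and Pou5f1 at −71.2 kb (136 and 120). Pairs with very unequal scores were also present: upstream of Nanog at −82.8 kb (132 for GFP and 37 for SRCAP), downstream of Klf5 at 26.1 kb (123 and 37) and downstream of Klf4 at 17.6 kb (34 and 105).

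**Figure D3:**
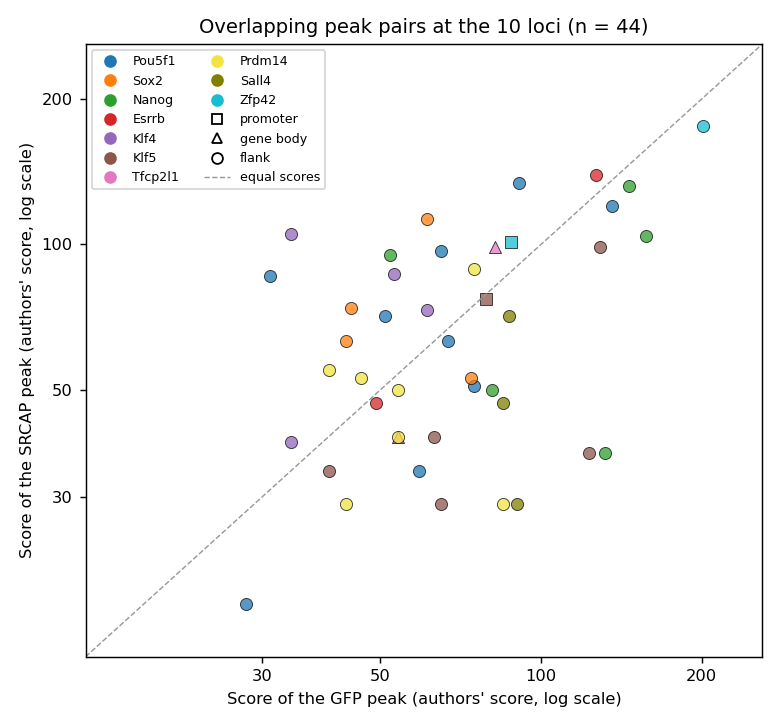
Score of the GFP peak against that of the SRCAP peak in the 44 overlapping pairs, both on log axes, coloured by gene and shaped by class (square, promoter; triangle, gene body; circle, flank), with the line of equal scores. GFP is higher in 26 pairs, SRCAP in 18, and the pair at the upper right is the one upstream of Zfp42 (201 and 176).

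Positions of single peaks are given from here on as the distance of the midpoint from the gene's 5′ end in the direction of transcription, with negative values upstream. For pairs the position is that of the GFP peak, and both scores are given with GFP first.

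At Pou5f1 (chr17:35506018-35510772, plus strand) there was no peak in the gene or its promoter window. GFP peaks lay just upstream, at −1.30 kb (score 45, the ninth sequence above), −1.91 kb (score 17) and −3.32 kb (score 43), and none of them overlapped a SRCAP peak. The SRCAP peak nearest to Pou5f1 lay on its other side, 8.18 kb from the nearest Pou5f1 TSS, in the overlapping promoter windows of the neighbouring genes Cchcr1 and Tcf19, where both antibodies gave a peak (scores 65 and 97). Upstream, a pair at −15.3 kb scored 75 and 51. A cluster of 4 pairs lay between −67.1 and −85.5 kb, around H2-Q6 and H2-Q7, which encode class I histocompatibility antigens: the pair in the H2-Q7 promoter scored 51 and 71, the intronic pair in H2-Q6 31 and 86, and the intergenic pairs at −71.2 and −85.5 kb 136 and 120, and 91 and 134. In all, 9 of the 17 GFP peaks and 9 of the 14 SRCAP peaks at the locus were shared, and none of the shared ones was within 5 kb of a Pou5f1 TSS.

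At Sox2 (chr3:34650405-34652461, plus strand), a gene with a single annotated TSS, the gene itself held no peak, and a pair lay on each side of it, in introns of the long noncoding gene Sox2ot that spans Sox2. The upstream pair at −4.00 kb (the fourth sequence above) scored 61 and 113, and the downstream pair at 3.52 kb scored 43 and 63. Another Sox2ot pair at −74.0 kb scored 44 and 74, and an intergenic pair at 94.96 kb scored 74 and 53. All 4 SRCAP peaks at Sox2 were therefore shared, whereas 4 of the 8 GFP peaks were not, at 14.1, 18.2, 28.7 and 77.4 kb with scores of 26 to 46. Beyond the 100 kb flank, downstream, further pairs lay at 111 kb (37 and 70) and 145 kb (96 and 56). SRCAP peaks at 108 kb (score 28) and 110 kb (score 30) overlapped none. Neither did GFP peaks at 110 kb (score 53) and 124 kb (score 33). Peaks this far out are described for Sox2 only. Other members also had peaks between 100 and 150 kb, from 4 GFP and 3 SRCAP at Sall4 to 0 and 1 at Klf5.

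At Nanog (chr6:122707489-122714633, plus strand) the promoter window held no peak, and a GFP peak of score 17 lay in an intron at 2.71 kb. The pair at −4.66 kb (146 and 132) was at percentile 94.7 of all GFP scores and 92.7 of all SRCAP scores. Downstream of the gene a pair at 8.74 kb scored 81 and 50. Farther upstream, towards Dppa3 and Gdf3, genes that are also expressed in mESCs, pairs lay at −82.8 kb (132 and 37) and −74.0 kb (52 and 95). GFP peaks without overlap lay in an intron of Gdf3 at −98.8 kb (score 134, the highest of any unshared peak at the 10 loci) and in an intron of Dppa3 at −78.5 kb (score 59). Between them and Nanog, SRCAP peaks at −46.9 kb (25) and −37.9 kb (53) and GFP peaks at −54.4 kb (37) and −37.1 kb (37) did not overlap. On the other side, a pair at the promoter of Gm5112, at 103 kb, scored 157 and 104, and peaks without overlap lay in and around Slc2a3, which encodes a glucose transporter.

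At Esrrb (chr12:86361117-86521628, plus strand), which encodes an orphan nuclear receptor, 4 GFP and 4 SRCAP peaks lay in introns, and none overlapped. Their scores were low, 18 to 54 for GFP and 14 to 40 for SRCAP. The GFP peak at 141.1 kb (score 31) and the SRCAP peak at 140.8 kb (score 29) were 6 bp apart, at −2.21 and −2.48 kb from an internal TSS, and the peaks at 35.0 kb (GFP, 18) and 34.4 kb (SRCAP, 27) were 375 bp apart. Both shared pairs were upstream: in the promoter of 4732487G21Rik at −55.2 kb (127 and 139) and at −40.1 kb (49 and 47). The highest-scoring unshared peak at the locus was a GFP peak at 196 kb (score 76), downstream of the gene.

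The 2 Krüppel-like factor genes differed in where their peaks lay. Klf4 (chr4:55527143-55532466, minus strand) had no peak in the gene or promoter window, and all 4 of its SRCAP peaks were downstream and shared, at 12.7 kb (53 and 87), 17.6 kb (34 and 105), 54.6 kb (34 and 39) and 67.9 kb in an intron of Gm12510 (61 and 73). The SRCAP score was the higher one in each of these 4 pairs. The GFP peaks that overlapped none were at −1.52 kb (score 34) and 56.8 kb (score 39). Klf5 (chr14:99298691-99315036, plus strand) had a pair in its promoter window, centred at −217 bp from the nearest TSS in the GFP list and −235 bp in the SRCAP list, with scores of 79 and 77. It also had 4 pairs downstream, at 26.1 kb (123 and 37), 41.2 kb (65 and 29), 51.1 kb (63 and 40) and 67.6 kb in the promoter of Gm49218 (40 and 34), and 1 far upstream in an intron of Pibf1 at −78.7 kb (129 and 99). At Klf5 the GFP score was the higher one in all 6 pairs. The 6 unshared GFP peaks at Klf5 scored 17 to 33, and the unshared SRCAP peaks were at −4.25 kb (score 27) and, in the promoter of Gm49219, at 88.5 kb (score 14). Each of these genes is 1 locus in 1 pair of libraries, so the opposite order of scores was not tested.

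Tfcp2l1 (chr1:118627945-118685168, plus strand), which encodes a factor of the naive state downstream of LIF, had all of its GFP peaks and 3 of its 4 SRCAP peaks in the gene or its promoter window. Both lists had a promoter peak, but on opposite sides of the TSS and 258 bp apart: the GFP peak was centred at −228 bp (score 34) and the SRCAP peak at 301 bp (score 40). Pairs lay in introns at 14.9 kb (54 and 40) and 20.3 kb (82 and 99). The flanks held a single peak, from the SRCAP antibody, in an intron of Clasp1 at −88.8 kb (score 40).

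Prdm14 (chr1:13113457-13127163, minus strand) had peaks of 1 list only near its TSS: a GFP peak in a coding exon at 1.44 kb (score 22), a GFP peak in an intron at 9.15 kb (score 26) and a SRCAP peak at −1.54 kb (score 45). Its 7 pairs were in the flanks, with the nearest at −7.23 kb (43 and 29). Downstream there were 5, at 23.1 kb (40 and 55), 42.1 kb (85 and 29), 57.4 kb (54 and 50), 67.3 kb in the promoter of Gm37162 (46 and 53) and 74.8 kb (75 and 89), and 1 lay at −89.1 kb in an intron of the neighbouring coactivator gene Ncoa2 (54 and 40).

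At Sall4 (chr2:168748332-168767943, minus strand) the SRCAP antibody gave a promoter peak centred at −83 bp from the nearest TSS (score 79, the highest of any unshared SRCAP peak at the 10 loci), with the nearest GFP peak 1889 bp away. That GFP peak, at −1.54 kb (score 90), overlapped a second SRCAP peak of score 29. Pairs also lay at −23.3 kb (87 and 71) and 75.9 kb in an intron of Atp9a (85 and 47). Of the 11 GFP peaks 8 were unshared, among them a run upstream at −31.3 kb (43), −39.8 kb (52), −52.9 kb (78), −72.4 kb (54) and −74.6 kb (75). The one at −52.9 kb was 23 bp from a SRCAP peak of score 14.

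Zfp42 (chr8:43295063-43306980, minus strand) had few peaks, 4 and 3, but the highest scores of the 10 loci. Its promoter pair scored 88 and 101, with midpoints at −189 bp (GFP) and −111 bp (SRCAP) from the nearest TSS. The pair upstream at −14.0 kb (201 and 176; the last sequence above) was at percentile 97.6 of all GFP scores and 96.5 of all SRCAP scores. The gene body held an unshared GFP peak at 1.10 kb (score 20) and an unshared SRCAP peak at 6.89 kb (score 34), and a GFP peak lay at 103 kb (score 64).

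Other properties of the peaks at the loci were set beside those of the whole lists, with the value of the whole list in parentheses. The median width was 293 bp for GFP (301 bp) and 269 bp for SRCAP (258 bp). Median scores were 44 (47) and 47 (47). Median GC content in 500 bp at the midpoint was 49.2% (49.8%) and 49.9% (51.0%), and the median ratio of observed to expected CpG was 0.303 (0.303) and 0.314 (0.310). Peaks of which at least 50% was repeat-masked were 7.37% of GFP peaks at the loci (11.6% of the list) and 5.71% of SRCAP peaks (11.9%).

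The 8 consensus sequences were set beside their share in all peaks of the list, and for each but PRDM14 in the GFP list the latter lay within the counting interval at the loci. In windows of 200 bp, the POU octamer was in 4 of 95 GFP windows (4.21%, 1.65 to 10.3; 2.21% of all GFP peaks) and in 2 of 70 SRCAP windows (2.86%, 0.787 to 9.83; 2.20% of all). SOX was in 6 GFP windows (6.32%, 2.93 to 13.1; 3.75% of all) and 3 SRCAP windows (4.29%, 1.47 to 11.9; 3.35% of all). KLF was in 10 (10.5%, 5.82 to 18.3; 7.89% of all) and 6 (8.57%, 3.99 to 17.5; 8.70% of all). TFCP2L1, a degenerate sequence, was in 13 (13.7%, 8.17 to 22.0; 15.7% of all) and 8 (11.4%, 5.91 to 20.96; 17.6% of all). The CTCF core was in 6 (6.32%, 2.93 to 13.1; 8.36% of all) and 9 (12.9%, 6.91 to 22.7; 10.9% of all). ESRRB was in 2 GFP windows (2.11%, 0.579 to 7.35; 1.66% of all), and PRDM14 and YY1/ZFP42 were in 1 each (1.05%, 0.186 to 5.72; 0.181% and 1.77% of all). ESRRB, PRDM14 and YY1/ZFP42 were in 0 of 70 SRCAP windows. The Wilson interval for 0 of 70 reaches 5.20%, and 3 counts of 70 would be 4.29%. Of all SRCAP peaks, 1.68%, 0.149% and 1.83% held these sequences. The POU octamers in the SRCAP list were at Nanog, in the pair at −82.8 kb, and at Klf4, in the pair at 12.7 kb. The GFP windows with an octamer were those of the same pairs, the Zfp42 promoter and an Esrrb intron at 148 kb.

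**Figure D4:**
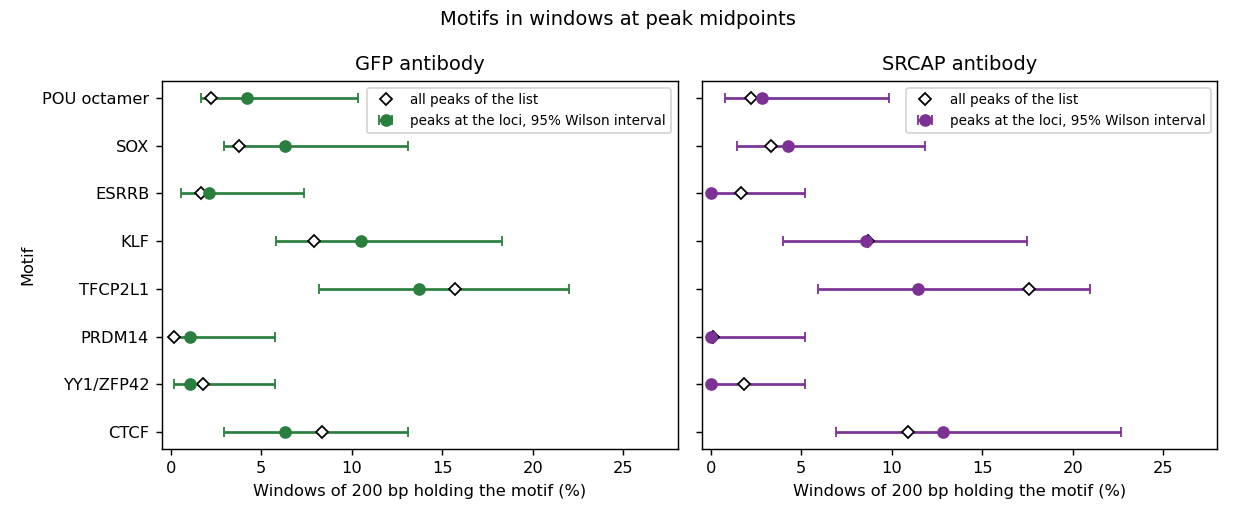
Share of 200 bp windows that hold each consensus sequence on either strand, for peaks at the loci (filled circles, with 95% Wilson intervals) and for all peaks of the list (open diamonds), GFP left and SRCAP right. In every row the value for all peaks lies within the interval at the loci, except PRDM14 in the GFP panel, where 1 of 95 windows held it.

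A list of 20 other genes of the pluripotency network (Nr5a2, Tbx3, Klf2, Dppa2, Dppa3, Dppa4, Dppa5a, Tdgf1, Fgf4, Utf1, Lin28a, Dnmt3l, Nr0b1, Stat3, Gbx2, Foxd3, L1td1, Gdf3, Etv5 and Mybl2) was described in the same way. Promoter peaks were present at 9 of the 20 with the GFP antibody (35.0% of all protein-coding genes) and at 6 with the SRCAP antibody (35.6%), all 6 with both (27.0%). The 6 of 20 are near the background. Gene body peaks were at 7 with GFP (25.3%) and 9 with SRCAP (25.0%), and flank peaks at 19 with each (83.9% and 84.8%). Within 5 kb of a TSS, 17 had a GFP peak (47.5%), 16 a SRCAP peak (47.4%) and 15 both (38.0%). The median density was 2.91 GFP peaks per 100 kb (1.85 over all genes) and 3.37 SRCAP peaks per 100 kb (1.80 over all genes). Dppa3 and Gdf3 share part of their windows with Nanog. X-linked Nr0b1 had no peak with either antibody in its window.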

How the data were processed

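CUT&RUN peaks of SYAT mESCs were analysed from 1 library with a GFP antibody and 1 with a SRCAP antibody, grouped by the antibody in the labels. For each library the authors deposited a list of peaks, giving coordinates, a name and a score. The submitters' processing notes name STAR, Picard and MACS2 and the builds mm10 and dm6, and the peak names carry a single library, so replicates were not pooled. The study's methods describe mapping with STAR, removal of duplicates, MACS2 calling on fragments and exclusion of blacklisted regions for other assays. Whether these lists were made that way, and against which control, is not given in the sources used here, and this choice decides which regions pass as peaks. The deposited scores are whole numbers, and the lowest was 13 with either antibody. Their meaning was not stated, and they were used only to rank or filter peaks within a list and to describe overlapping pairs. The methods name the GFP antibody for another assay, so the assay of that library is known from its labels.

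Peaks were placed by their midpoint relative to GENCODE vM21 genes on GRCm38, whose chromosomes contain all deposited ends, and sequences were read from GRCm38.p6. Each list held 3 mitochondrial peaks, which were left out of width, composition and motif values. Overlap meant at least 1 bp. Motifs were searched on both strands in 200 bp at the midpoint. Percentages carry 95% Wilson intervals and densities exact Poisson intervals (scipy 1.17.1 in Python 3.11.15, with numpy 2.4.6, pandas 2.3.3 and matplotlib 3.10.9). Overlap was tested on simulated peaks, and the bounds of the promoter window were checked for a TSS on each strand. The placement of peaks into classes was not tested on simulated data. No test between antibodies was possible with 1 library each. All 10 members are named, and other genes only where they overlap or are nearest to a described peak. The members, the list of 20 network genes (1 further gene is not reported here) and the settings were chosen with earlier results of these data known. Alternatives covered the score, the promoter window, the flank length, the overlap, the motif window and the Zfp42 locus.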

Additional observations from a re-analysis of the deposited data

How the results depend on the processing

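No paired analysis was possible because there was only 1 library per antibody, and for the same reason no library could be left out. Of 52 alternative values for peak counts, densities and sharing, 40 stayed within 1.5 times the count or within the counting interval, and of 64 for motif shares, 57 did. With peaks at or above the median score, 44 GFP and 37 SRCAP peaks were left at the loci (1.91 and 1.61 per 100 kb). Densities of all genes under this filter are not given here, so these values cannot be set beside the medians above. Gene body peaks were then at 2 members and 1 member, and no GFP window held PRDM14 or YY1/ZFP42 (0%). The share of all genes with a gene body peak under this filter is not given here either. The lower counts are therefore not a result about the members. With both lists cut in this way, the shared percentage of GFP peaks was 56.8, beside 77.3 where only the GFP list was cut. With 2500 bp either side of any TSS, 8 members had a GFP promoter peak (41.6% of protein-coding genes) and 6 a SRCAP promoter peak (41.9%). With 50 kb flanks, 61 GFP and 41 SRCAP peaks remained. With a reciprocal overlap of at least 50%, 33.7% of GFP and 45.7% of SRCAP peaks were shared. Whole-list shares are not given for this overlap, for lists cut by score or for peaks in no promoter window. Values at the loci under these settings therefore cannot be set beside the whole-list shares above. In windows of 500 bp, KLF was in 21.1% of GFP and 20.0% of SRCAP windows (19.5% and 19.7% of all peaks). TFCP2L1 was in 35.8% and 34.3% (34.5% and 36.2% of all peaks). CTCF was in 15.8% of GFP windows (20.1% of all GFP peaks). Longer windows hold more matches by construction. The distances of 5 and 10 kb, the sharing of peaks in no promoter window (43.9% for GFP and 62.1% for SRCAP) and 4 of the printed sequences were chosen after seeing the data. Depth is unknown, and the absence of a peak at a promoter is no evidence that SRCAP was absent there.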
